A study of Mus musculus with 47 samples.

Results

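Binding of the transcription factor Myc was compared between 6 liver tumours and 4 control livers of FVB mice, in 10 ChIP-seq peak lists out of the 46 lists available for a series of 47 samples. The members are the Myc lists of tumours with the tet-Myc transgene expressed and of control livers. An overlap of 1 bp or more was enough to merge peaks of the 10 lists, which gave 64268 regions. The tumours had the genotype tet-Myc/LAPtTA with tet-Myc expression on, a Myc transgene driven by the liver-specific transactivator LAPtTA and induced before birth. Control liver 1 carried tet-Myc with its expression off, control liver 2 carried LAPtTA, and control livers 3 and 4 were wild type. Per the labels tet-Myc was either wild type or V394D, a mutant known for weakened binding to the partner protein Miz1, and no label assigns a form to a tumour. Ages were not given. Separate animals are not stated for the libraries within a group, so the spread behind each p-value is that of these libraries and could be technical. Chromatin came from formaldehyde-fixed tumour nodules or liver pieces and was precipitated with the Myc antibody N262, with normal rabbit IgG named as the background control.

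Myc binds DNA as a dimer with Max, with a preference for a short palindrome called the E-box, and is found mostly at promoters that are already open. It drives genes of ribosome production, nucleotide synthesis and cell growth, and at raised levels it also occupies weaker promoters and enhancers. In resting adult liver its own expression is low, and forced expression in liver cells gives rise to tumours. H3K4me3, a histone mark found mainly at promoters, H3K27ac, a mark of active promoters and enhancers, and RNA polymerase II (RNAPII) were mapped in other libraries of the series and serve here as readouts that the Myc comparison did not use.

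The lists hold positions and a score per peak and no read counts. Depth is therefore unknown, and absence of a peak says only that none was called. In bulk chromatin, binding in fewer cells and less binding per cell cannot be told apart, nor can a change in the cell types of the tissue. No annotation of the mm9 build of the files was used, so regions are given by position and chromatin class, no gene is named, and the labelled tissue was not checked against marker genes.

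Tumours had longer lists and wider peaks. The control lists held 1953, 2816, 1002 and 8499 peaks in control livers 1 to 4. The tumour lists held 19269, 21570, 25742, 38814, 41558 and 55763 peaks in tumours 1 to 6. Every tumour list was thus longer than every control list, and the tumour mean was 9.47 times the control mean (two-sided exact permutation p = 0.00952, the smallest that 6 against 4 libraries allow, adjusted over 3 measures 0.0143). The genome under peaks was 0.246, 0.460, 0.113 and 4.47 Mb in the controls and 13.4, 10.9, 18.0, 30.05, 35.1 and 61.0 Mb in the tumours, a ratio of means of 21.2 (exact permutation p = 0.00952, adjusted 0.0143). The median peak width was 605 ± 111 bp in tumours and 186 ± 174 bp in controls (SD, n = 6 and 4, exact permutation p = 0.019, adjusted 0.019). Widths overlapped between the groups, since control liver 4 had a median of 444 bp and tumour 2 one of 428 bp. Control liver 4 stood apart from the other controls, whose medians were 78 to 132 bp. The narrowest peak was 53 to 71 bp in control livers 1 to 3, 293 bp in control liver 4 and 239 to 328 bp in the tumours, so the width floor of the lists did not follow the groups. With wild-type controls alone the differences kept their direction but could not pass the threshold.

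**Figure D1:**
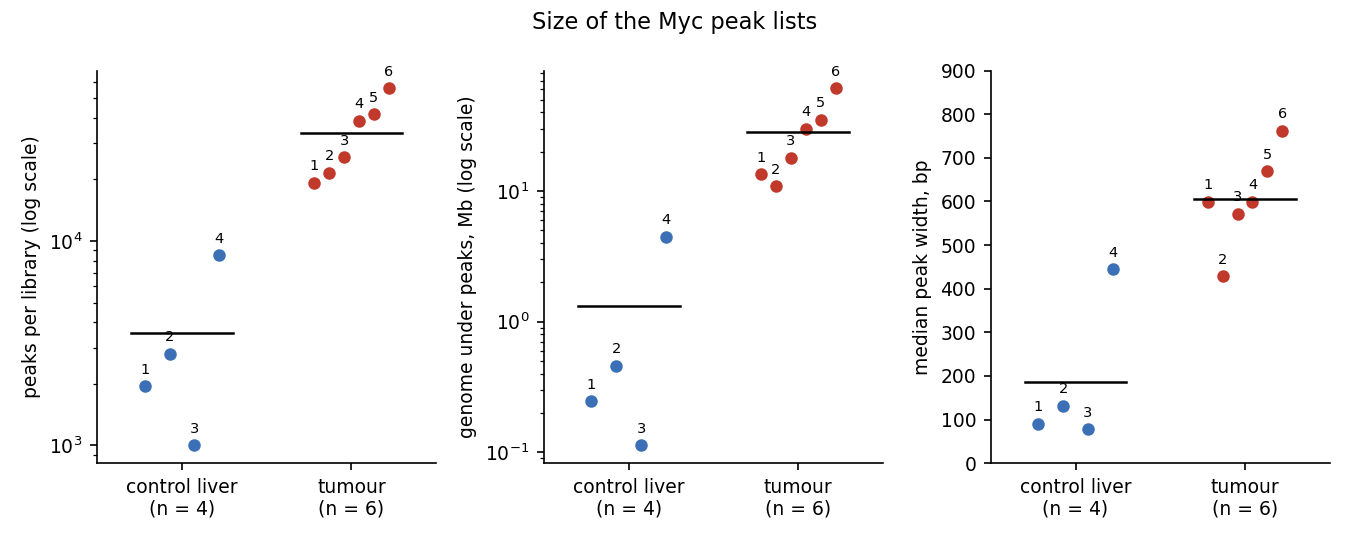
Peaks per library (log scale), genome under peaks in Mb (log scale) and median peak width in bp for each Myc list, with points numbered by replicate and horizontal lines at group means. The 6 tumours lie above the 4 control livers in peak number and covered length, and control liver 4, at 4.47 Mb and 444 bp, lies nearest to them.

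The merged regions fell into a core shared by all tumours and a large set seen in 1 tumour. Of the 64268 regions, 13650 had a peak in all 6 tumours, 3749 in 5, 4404 in 4, 6107 in 3, 10495 in 2 and 24384 in 1. The remaining 1479 had a peak in control liver and in no tumour. Tumour 6, with the longest list, held 16927 of the 24384 single-tumour regions (69.4%), tumour 5 held 5786 and tumour 4 held 1538. The other 3 tumours held 125, 7 and 1. The reverse pattern appeared at regions missing from 1 tumour, where tumour 1 lacked 1417 and tumour 2 lacked 1394 of the 3749, and tumour 6 lacked 0.

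The share of regions with a control peak was larger the more tumours held the region. A peak in at least 1 control liver was present at 43.4% of the regions held by all 6 tumours, 15.7% of those held by 5, 10.3% by 4, 5.71% by 3, 2.92% by 2 and 1.34% by 1. Another 7727 regions had a peak in all 6 tumours and in no control liver. Among the regions held by 6 tumours, 66.4% overlapped H3K4me3 regions of control liver (present in at least 2 of its 4 H3K4me3 libraries), and among single-tumour regions 12.8% did. The share in neither H3K4me3 nor H3K27ac of control liver ran the other way, from 61.2% of single-tumour regions to 16.0% of the core. Core regions were longer, with a median of 1938 bp against 448 bp, and a longer region meets a mark or a control peak more readily. In tumour chromatin, H3K27ac regions overlapped 92.7% and RNAPII regions 77.7% of the core, against 39.2% and 22.5% of the single-tumour regions.

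**Figure D2:**
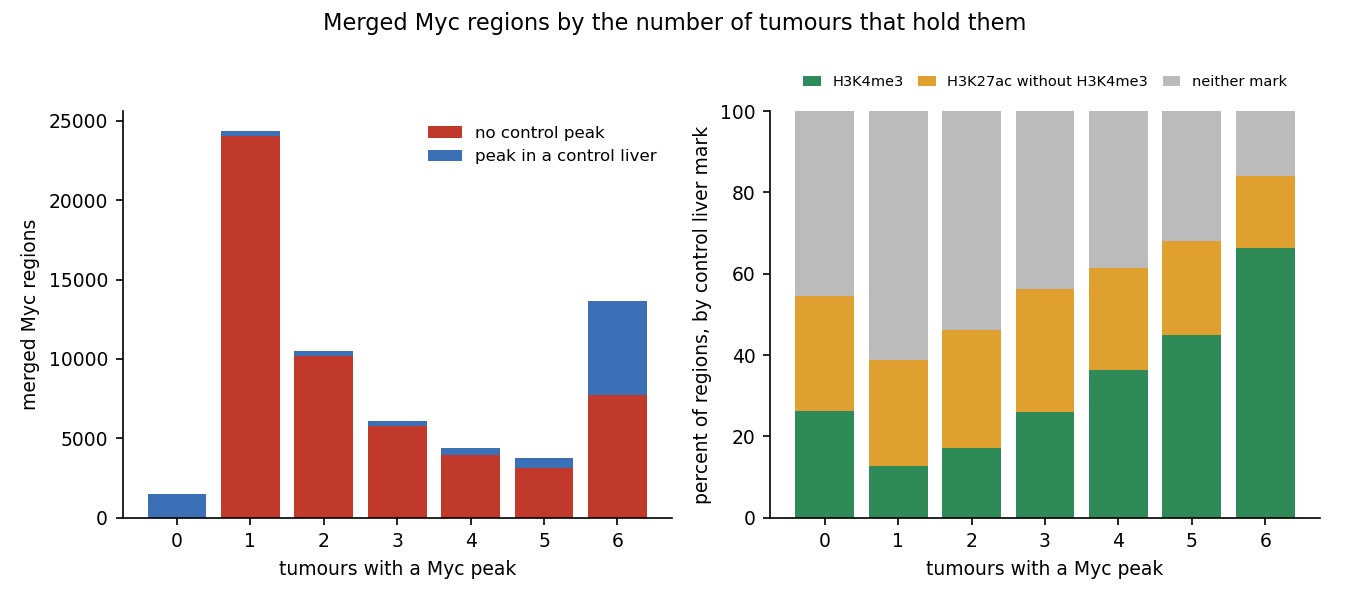
Left, number of merged Myc regions by how many of the 6 tumours hold a peak there, split by whether any control liver has a peak; right, the percent of those regions in H3K4me3, in H3K27ac without H3K4me3, or in neither, by the marks of control liver. The H3K4me3 share is 12.8% at regions of 1 tumour and 66.4% at regions of 6.

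Shared regions also carried the higher scores within each tumour. Percentile ranks within a list were used, since nothing states the scale of the authors' score. In tumour 6 the median rank was 21.0 for peaks found in no other tumour and 87.0 for peaks found in the other 5, and the median width went from 461 to 1836 bp. In tumour 4 the same ranks were 14.1 and 80.5, and in tumour 1, which had 7 peaks of its own, they were 7.09 and 59.8. Of the 1002 highest-scoring peaks of each tumour, 1002 being the length of the shortest list, between 98.8% and 100% overlapped a peak of any other given tumour. Whole lists were shared to very different degrees, from 85.2% to 99.6% of the peaks of tumour 1 down to 30.6% to 57.7% of those of tumour 6.

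Coverage by Myc peaks was higher in tumours at a large part of the tested regions. The percent of each region's length covered by peaks was fitted with limma for 39128 regions covered in at least 2 of the 10 libraries, with calls at a Benjamini-Hochberg adjusted p below 0.05. It was higher in tumours at 16026 regions, 41% of those tested, and lower at 62, 0.158% of those tested. In either direction 41.1% were called. Since limma shared 1 spread among regions of like mean coverage, the SE of a region is not its own. Of the higher regions 10143 (63.3%) had no peak in any control liver, and 12105 (75.5%) had a peak in all 6 tumours. Of the 23040 regions not called, 20642 (89.6%) had no control peak and 1543 (6.70%) had a peak in all 6 tumours. Lack of a control peak was thus less frequent at higher regions than at regions not called. The 2 sets were split on this same coverage, and higher regions were longer, with a median of 1594 bp against 839 bp. This contrast therefore cannot be read as a trait of the higher regions. The higher regions were covered to 38.6%, 29.99%, 50.3%, 68.1%, 69.2% and 96.6% on average in tumours 1 to 6, and to 0.311%, 0.543%, 0.133% and 9.26% in control livers 1 to 4. The call was made from these same values, so the contrast between the groups is not a separate result. Tumour 6 covered nearly the whole of the higher regions, but it also covered 87.9% of the regions not called on average. Tumours 1 to 5 covered 3.37% to 45.0% of the regions not called. Control liver 4 covered more of the higher regions than the other controls together. A peak was present at 34.2% of the higher regions in control liver 4 and at 2.57% to 5.95% in the others, against 85.2% to 99.9% in the tumours.

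The number of calls moved with how list length was treated and with the controls used, and list length differed between the groups without overlap. With the log10 number of peaks as a covariate 5 regions were higher and 21 lower (limma, 1199 at an unadjusted p below 0.05), with wild-type controls 4838 were higher and 0 lower (limma, 11344 unadjusted), and with lists of equal length 384 were higher and 110 lower of 2124. List length and group cannot be told apart at single regions.

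The share of regions called higher was largest in H3K4me3 of control liver. Of 15940 tested regions in H3K4me3 of control liver 63.7% were higher, of 9480 with H3K27ac alone 27.3%, and of 13708 with neither 23.9%, beside 41% over all. By number this was 10157, 2588 and 3281 regions. H3K4me3 regions were also longer, with a median of 1588.5 bp against 1043 and 786 bp. At 1176 higher regions (7.34%) none of the 3 readouts had a region in control liver or tumour, against 25.4% of the 23040 regions not called and 40.3% of the 62 lower ones. Peaks of tumours in which the transgene had been switched off touched 249 of the higher regions (1.55%), 9 of the 62 lower regions (14.5%) and 40 of the 23040 not called (0.174%), in lists of 98, 331 and 239 peaks.

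The gains in H3K4me3 chromatin with the largest differences were bound in 6 of 6 tumours and in no control liver. At chr1:74849497-74850380 (mm9, as all positions here, counted from 1) coverage was 83.4%, 68.7%, 81.3%, 100%, 83.7% and 95.4% in tumours 1 to 6, and no control had a peak (difference 85.4 ± 11.6 points, SE, limma adjusted p = 9.97e-10). H3K4me3 covered this region to 86.3% ± 23.2 in control liver and 97.0% ± 5.995 in tumours (SD, n = 4 and 4), with no H3K27ac or RNAPII peak in either. The calls at chr1:74849497-74850380 and chr2:30512948-30515086 were lost with log10 peak number as a covariate (limma). Those at the remaining named regions of this class were kept. The other 4 regions of this class behaved alike in presence but not in marks. At chr2:30571735-30574959 and chr2:30512948-30515086, H3K27ac covered everything in all 8 libraries and RNAPII at least 89.6% on average in each group. At chr11:72223961-72225655 H3K27ac was absent from the 4 controls and covered 99.0% ± 2.01 in tumours, and RNAPII covered 65.3% ± 43.8 and 92.6% ± 6.34. At chr18:66450678-66451771 neither group had an RNAPII peak, and H3K27ac was present in 2 of 4 tumours and no control. Within the tumour lists these 5 regions ranked from the 30.05th to the 97.8th percentile by score, so the largest gains in coverage were not all among the highest-scoring peaks.

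The gains in H3K27ac of control liver without H3K4me3 had slightly smaller differences of 80.2 to 83.6 points (limma SE 11.8 to 12.1). None of these named regions was called with log10 peak number as a covariate (limma). The region with the largest difference, chr12:113174591-113175801, was covered to 74.2%, 69.9%, 76.5%, 100%, 86.2% and 94.9% in tumours 1 to 6 and had no control peak (83.6 ± 11.8 points, limma adjusted p = 3.24e-09). H3K27ac covered it in all 4 tumours and in 2 of 4 controls. Another region of the class lay close by, at chr12:113182582-113184032, with H3K27ac over its whole length in all 8 libraries. At chr8:106897498-106900998 RNAPII covered 69.9% ± 46.6 in tumours, with a peak in 3 of 4, and 1.41% ± 2.81 in controls, with a peak in 1 of 4. Myc coverage there was 72.3% to 81.1% in tumours 1 to 5 and 100% in tumour 6. At chr11:119875935-119877314 H3K27ac covered 100% in tumours and 28.4% ± 37.1 in controls, and tumour 5 had the lowest Myc coverage at 54.8%. At chr18:75658615-75659361 H3K27ac covered everything in both groups, and RNAPII had a peak in 4 controls and 3 tumours.

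Gains outside both marks of control liver had differences of 83.2 to 85.3 points (limma SE 11.6 to 11.8). Only chr4:139302781-139303663 among these named regions kept its call with log10 peak number as a covariate (limma). At chr7:30612911-30613544 Myc covered 80.8%, 65.0%, 91.2%, 89.0%, 85.8% and 100% in tumours 1 to 6 and nothing in controls (85.3 ± 11.6 points, limma adjusted p = 9.97e-10), and no library had an H3K4me3, H3K27ac or RNAPII peak there. The same absence held at chr4:139302781-139303663, where Myc covered 62.1% in tumour 2 and 86.2% to 94.1% in the other 5. The other 3 regions of the class had a mark in tumours. The control side was limited in advance, since the class excludes mark regions present in at least 2 control livers. H3K4me3 covered 98.4% ± 3.29 of chr2:146046766-146047632 in tumours, against a peak in 1 of 4 controls. H3K27ac covered 97.7% ± 4.58 of chr2:48296668-48298076 in tumours and nothing in controls, and was present at chr5:140968722-140969341 in 2 of 4 tumours.

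**Figure D3:**
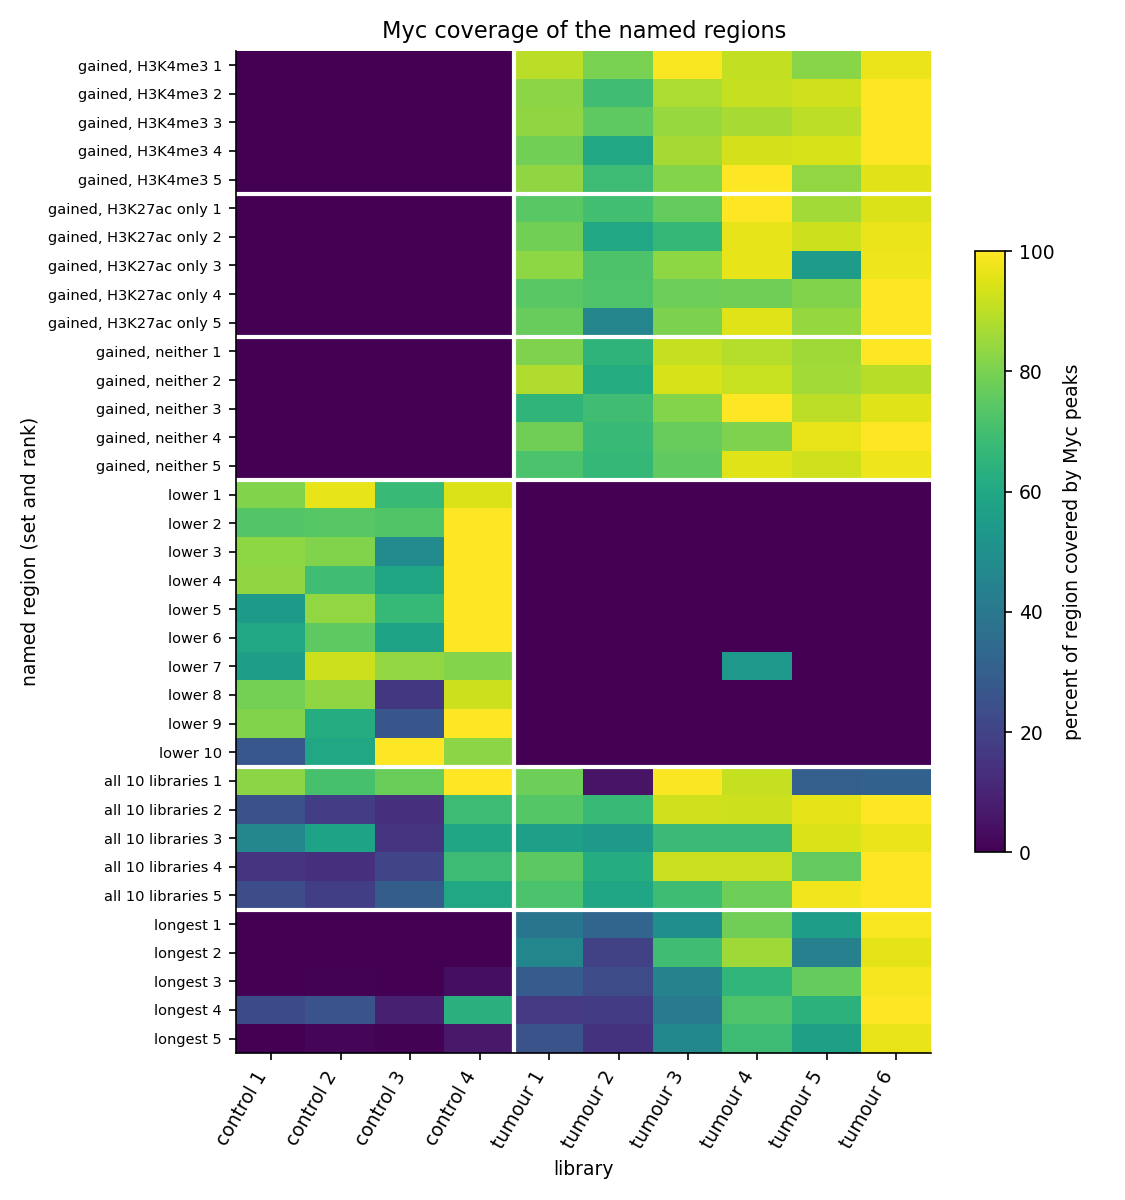
Heat map of the percent of each named region covered by Myc peaks (colour, 0 to 100) in the 10 libraries (columns), with the 35 regions in rows by set and rank; within the class sets regions are ordered by the difference between groups. Gained regions are dark in all 4 control livers and lower regions in the tumours, except 53.3% in tumour 4 at one lower region; the shared and longest sets vary within both groups.

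The 62 regions lower in tumours were few and short, with a median length of 504 bp against 1594 bp for the higher ones. Of these, 43 had no tumour peak at all and 46 had a peak in all 4 controls. Mean coverage was 59.2%, 72.8%, 37.1% and 87.3% in control livers 1 to 4. The count depended on which controls were kept, at 25 without control liver 1 and 19 without control liver 2 (limma). By class 17 lay in H3K4me3 of control liver, 16 in H3K27ac alone and 29 in neither. H3K27ac regions of control liver met 28 of them, and 21 of these 28 had no H3K27ac region in tumours. At 14 there was RNAPII in control liver and not in tumours. H3K27ac regions met 45.2% of the lower regions in control liver and 14.5% in tumours, against 49.3% and 56.0% of the regions not called. For RNAPII these shares were 30.6% and 11.3%, against 39.1% and 32.4%, so regions not called also had less RNAPII in tumours. The share with a readout in controls alone is not given over all tested regions.

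The named lost regions varied in score rank within the control lists, from the 26.5th to the 99.9th percentile. None of the 10 named lower regions was called with log10 peak number as a covariate (limma). None was called with wild-type controls alone either (limma). All their differences stayed negative in both fits. At chr10:98847383-98847801 Myc covered 80.9%, 96.2%, 67.3% and 94.7% in control livers 1 to 4 and nothing in 6 tumours (difference -84.8 ± 16.1 points, limma adjusted p = 4.18e-06), with score percentiles of 99.1, 99.9, 74.2 and 93.6. At chr12:100574478-100574964 coverage was 83.4%, 69.4%, 58.7% and 100%, with percentiles of 99.5, 99.9, 94.4 and 99.7, which is near the top of every control list. H3K27ac was present there in 3 of 4 controls and 1 of 4 tumours. At chr3:137899599-137900191 Myc covered 26.98%, 59.5%, 100% and 82.5% in controls (-67.2 ± 20.1 points, limma adjusted p = 0.00346), while H3K4me3 and RNAPII covered the whole region in 4 of 4 controls and had no peak in 4 tumours. H3K27ac stayed at 3 of 4 tumours there. This call was lost without control liver 4, at -62.2 points (limma adjusted p = 0.0634).

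Loss of Myc went with different states of H3K27ac at the remaining named regions. At chr12:81282596-81283159 and chr8:128096180-128096702 H3K27ac covered everything in 4 controls and nothing in 4 tumours. At chr4:124423349-124423742 it covered everything in both groups, so Myc peaks were missing from tumours where the mark was present, and the Myc peaks of control livers 1 to 4 ranked at the 77.0th, 84.2nd, 26.5th and 76.8th percentile. At chr3:94142419-94142947 tumour 4 had a Myc peak over 53.3% of the region at the 13.98th percentile of its list, and the other 5 tumours had none. At chr7:95459279-95459603 no library had any of the 3 readouts, the control peaks ranked at the 77.6th, 84.2nd, 45.9th and 64.0th percentile, and the call was lost without control liver 1 (-64.0 points, limma adjusted p = 0.0614) and without control liver 2 (-64.6 points, limma adjusted p = 0.0590).

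Of the 62 lower regions 3 lay on the mitochondrial genome. Myc peaks there numbered 20, 18, 20 and 3 in control livers 1 to 4, covering 9801, 8386, 4369 and 11850 bp, and 0 in each of the 6 tumours. The named regions chrM:10917-16374 and chrM:436-6478 were covered to 78.1% ± 21.7 and 67.3% ± 31.1 in controls (SD, n = 4). The second call was lost without control liver 1 (-62.8 points, limma adjusted p = 0.0668). The tumours in which tet-Myc was switched off had 2, 23 and 4 mitochondrial peaks. List length and peak width differed between these libraries, and their part in the mitochondrial peaks was not tested. Peak ends were used as given, without a check against the length of the mitochondrial genome.

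Binding in all 10 libraries was found at 160 regions. At chr4:116792446-116794371 coverage was 23.5%, 18.7%, 29.7% and 59.97% in control livers 1 to 4 and 71.6%, 59.2%, 69.1%, 78.0%, 98.0% and 99.9% in tumours 1 to 6 (46.3 ± 10.6 points, limma adjusted p = 0.00012). The groups overlapped, since control liver 4 exceeded tumour 2. By score it was near the top of every list, at the 96.4th percentile or above in all 10. With log10 peak number as a covariate the difference was -4.45 points. A pair of regions on chromosome 8, chr8:19784347-19785389 and chr8:20019552-20020717, were higher in tumours by 55.6 ± 10.3 and 53.2 ± 10.6 points (limma adjusted p = 2.45e-06 and 1.01e-05), but lower by 25.9 and 23.0 points with lists of equal length. At chr4:35073934-35074615, which had H3K27ac without H3K4me3, the 28.2-point difference (limma adjusted p = 0.0214) turned to -75.4 points with lists of equal length, and the call was lost without control liver 1 or 3 or tumour 4, 5 or 6 (limma adjusted p = 0.0573 to 0.228).

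The region chr17:39979823-39985909 was covered less in tumours although every tumour had a peak there. Coverage was 82.5%, 71.0%, 77.4% and 99.9% in the controls and 77.7%, 5.13%, 99.5%, 91.2%, 30.1% and 31.1% in tumours 1 to 6 (-26.9 ± 10.2 points, limma adjusted p = 0.023). Tumours 1, 3 and 4 lay within the range of the controls, and tumours 2, 5 and 6 were below all of them. In control liver 4 it held the highest score of the list, at 143. No filter for repeated sequence was applied at this or any other region, and the part of repeats was not tested. The call was lost on leaving out control liver 1 or 3 or tumour 1, 2, 4, 5 or 6 (limma adjusted p = 0.0517 to 0.211), and with a stricter score limit the difference was 15.9 points.

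The longest regions held by all 6 tumours were clusters of peaks. None of the 5 longest was called with log10 peak number as a covariate (limma). The longest, chr7:149746234-149763866, spans 17633 bp, and no control liver had a Myc, H3K27ac, H3K4me3 or RNAPII peak in it. Myc covered 38.9%, 32.7%, 49.9%, 78.2%, 55.5% and 99.2% of it in tumours 1 to 6 (59.0 ± 15.5 points, limma adjusted p = 0.000778), as 7, 8, 6, 8 and 6 peaks in tumours 1 to 5 and 1 peak in tumour 6. Its best peak stood at the 98.4th percentile or above in every tumour list. In the 4 tumours with such libraries H3K27ac covered 100% ± 0, RNAPII 76.0% ± 23.2 and H3K4me3 19.3% ± 3.10 (SD). Of the named regions it was the one where all 3 readouts were present in 4 of 4 tumours and 0 of 4 controls.

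The other long regions already carried marks in control liver. At chr11:120088703-120101186 (12484 bp) Myc covered 60.03% ± 28.8 in tumours and nothing in controls (SD, n = 6 and 4, difference SE 15.2, limma adjusted p = 0.000517), with H3K27ac over at least 99.7% on average in both groups. At chr10:80416451-80428151 and chr8:11000982-11012307 control coverage was 1.07% ± 1.67 and 2.30% ± 3.20, and tumour coverage 56.3% ± 29.3 and 51.5% ± 29.7. The last of these calls was lost when any of control livers 1, 2 or 3 or tumours 3 or 4 was left out (limma adjusted p = 0.0502 to 0.0897), and that at chr10:80416451-80428151 without tumour 4 or 5 (0.0956 and 0.0824). At chr19:5839380-5850751 the groups did not separate, at 52.0% ± 32.9 in tumours and 29.99% ± 23.4 in controls (SD, n = 6 and 4, limma adjusted p = 0.164, but 0.0260 without tumour 2), and RNAPII and H3K27ac covered everything in all 8 libraries.

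The highest-scoring Myc peaks of tumours lay mostly at promoter marks of control liver, as did those of control liver 4. Among the 1002 highest-scoring peaks of each list, the share in H3K4me3 of control liver was 51.1%, 34.7%, 66.1% and 85.3% in control livers 1 to 4 and 89.3%, 70.7%, 93.9%, 94.4%, 86.3% and 76.2% in tumours 1 to 6. The 3 controls with narrow peaks lay below all tumours and control liver 4 lay among them. The means were 85.1% ± 9.70 and 59.3% ± 21.6 (SD, n = 6 and 4, exact permutation p = 0.0381, adjusted over 6 class shares 0.0952), so the difference did not pass adjustment. The shares with H3K27ac alone were 8.03% ± 5.13 and 21.9% ± 10.4, and with neither mark 6.82% ± 4.59 and 18.8% ± 11.2 (exact permutation p = 0.0381 and 0.0476, adjusted 0.0952 for both). In whole lists the H3K4me3 share was 50.6% ± 11.8 in tumours and 60.6% ± 17.1 in controls (exact permutation p = 0.324), the opposite direction. It was lowest in the longest tumour list, at 33.1% in tumour 6, and highest among tumours in the shortest, at 64.2% in tumour 1.

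Score and promoter marks went together in tumours and control liver 4 but not in the other controls. From the lowest to the highest of 4 equal parts of a list by score, the H3K4me3 share went from 51.2% to 80.3% in tumour 1, from 18.0% to 60.04% in tumour 6 and from 79.3% to 84.1% in control liver 4. It went from 59.7% to 46.9%, from 44.6% to 32.5% and from 69.7% to 59.4% in control livers 1 to 3. The 100 highest-scoring peaks differed more. Of these, 84 to 99 lay in H3K4me3 of control liver in the tumours and 92 in control liver 4, against 36, 24 and 62 in control livers 1 to 3. In no tumour list was there any overlap for 40, 25 and 54 of the 100 highest-scoring peaks of control livers 1 to 3, and for 5 of those of control liver 4. Between 84 and 97 of each tumour's 100 highest-scoring peaks met a control peak.

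**Figure D4:**
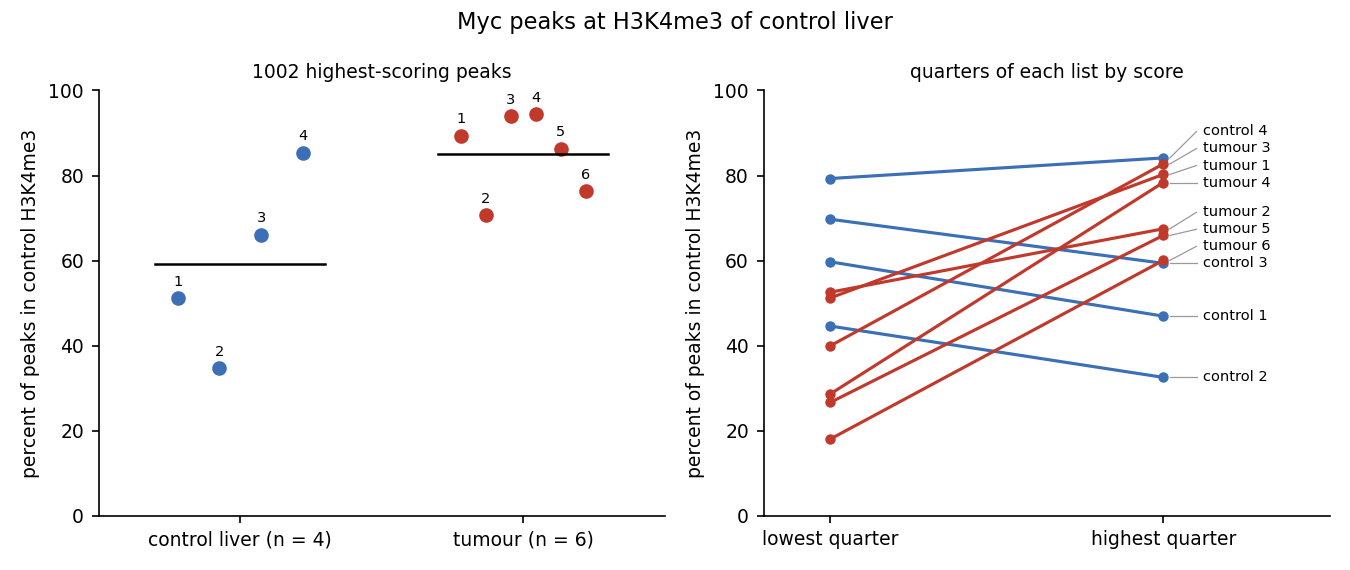
Percent of Myc peaks that overlap H3K4me3 regions of control liver: left, among the 1002 highest-scoring peaks of each list (points numbered by replicate, lines at group means); right, in the lowest and highest of 4 equal parts of each list by the authors' score. Lines climb in the 6 tumours and in control liver 4 and descend in control livers 1 to 3.

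Most control peaks were found again in tumours. A peak of at least 1 tumour overlapped 73.0%, 69.6%, 76.6% and 90.9% of the peaks of control livers 1 to 4, and all 6 tumours overlapped 41.2%, 35.3%, 48.8% and 66.8%. The peaks with no tumour counterpart numbered 527, 856, 234 and 777. Of these 33.8%, 19.0%, 40.6% and 33.3% lay in H3K4me3 of control liver, against 76.0%, 65.3%, 85.7% and 91.7% of the control peaks found in all 6 tumours. In each of the 4 controls the share at this promoter mark was thus larger among the peaks that tumours also held. With lists of equal length, 4.19% to 18.7% of the peaks of control livers 1 to 3 met a given tumour list and 25.6% to 40.9% of those of control liver 4, while tumours met each other at 50.4% to 79.8%. Control lists met each other at 22.7% to 51.6%, and control liver 4 met the other controls at 22.7% to 34.2%, a range below and overlapping its range with tumours. The 1002 peaks are the whole list of control liver 3 but a small part of each tumour list. Against whole tumour lists, 36.1% to 70.8% of the 1002 highest-scoring peaks of control livers 1 to 3 met a given tumour. For control liver 4 this was 84.9% to 92.6%.

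Tumour peaks at sites bound in control liver had higher scores than other tumour peaks. The median percentile rank of peaks that met a control peak exceeded that of the others by 32.6, 26.8, 40.3, 43.1, 40.2 and 42.1 points in tumours 1 to 6. The mean difference was 37.5 ± 6.44 points (SD, n = 6, positive in 6 of 6, two-sided exact sign-flip permutation p = 0.0312, the smallest possible with 6). In tumour 4, for example, 7710 peaks with a control peak had a median rank of 84.7 and the 31104 others one of 41.6. Score went with width within lists, for example with median widths of 403 and 1834 bp in the lowest- and highest-scoring of 4 equal parts of tumour 6, and the part of width in the difference was not tested.

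At the regions higher for Myc, every tumour had more H3K27ac coverage than every control liver. Over the 16026 higher regions the mean H3K27ac coverage was 47.5%, 54.4%, 70.3% and 69.8% in control livers 1 to 4 and 85.8%, 77.8%, 82.7% and 77.8% in tumours 1 to 4, so the groups did not overlap. The means were 60.5% ± 11.4 and 81.0% ± 3.91 (SD, n = 4 and 4, exact permutation p = 0.0286, the smallest possible, adjusted over 9 tests 0.0643). The difference did not pass adjustment. The gap was smaller against the wild-type livers 3 and 4 than against livers 1 and 2. At regions not called for Myc, H3K27ac covered 47.6% ± 4.90 in tumours and 38.4% ± 9.68 in controls (exact permutation p = 0.229). H3K27ac regions met 86.0% of the higher regions in tumours and 72.0% in control liver, with 2671 (16.7%) met in tumours alone and 418 (2.61%) in controls alone.

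H3K4me3 and RNAPII did not separate the groups at the regions higher for Myc. H3K4me3 coverage there was 58.1% ± 1.59 in tumours and 54.5% ± 3.08 in controls (exact permutation p = 0.114), and RNAPII coverage was 55.3% ± 6.86 and 53.4% ± 4.74 (SD, n = 4 and 4, exact permutation p = 0.657). RNAPII at regions not called was 20.0% ± 5.62 in tumours and 28.2% ± 5.43 in controls (exact permutation p = 0.0857), with the lowest value, 12.5%, in tumour 4. The libraries of the readouts carry the same numbers as the Myc libraries, but the labels do not say that the same animals were used.

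At the 62 regions lower for Myc all 3 readouts were lower in tumours, without overlap between the groups. H3K27ac covered 9.92% ± 1.51 in tumours and 37.4% ± 6.59 in controls, H3K4me3 6.12% ± 3.48 and 21.9% ± 3.39, and RNAPII 8.85% ± 2.55 and 25.04% ± 6.43 (SD, n = 4 and 4, exact permutation p = 0.0286 and adjusted 0.0643 for each). The H3K27ac values were 31.8%, 33.9%, 37.1% and 46.7% in control livers 1 to 4 and 10.4%, 9.14%, 8.34% and 11.8% in tumours 1 to 4. Each of the 4 controls lay above each tumour, but with adjustment none of the 3 differences passed 0.05.

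**Figure D5:**
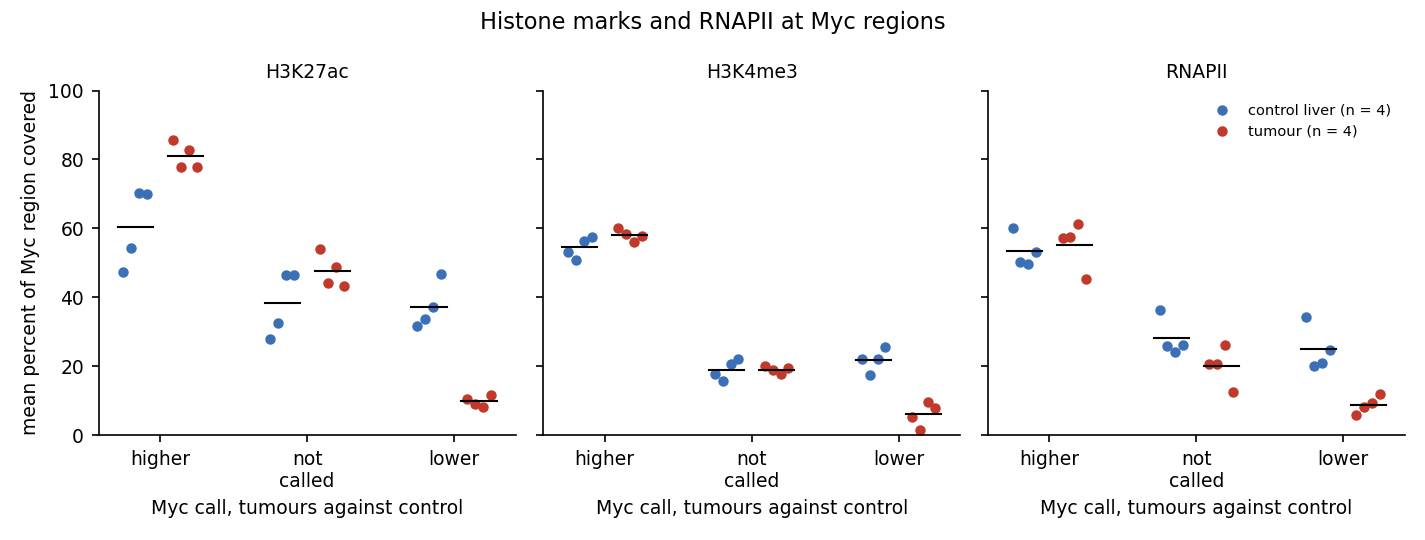
Mean percent of Myc regions covered by H3K27ac, H3K4me3 and RNAPII peaks in each library (points; 4 control livers, 4 tumours), for regions called higher, not called or called lower for Myc in tumours, with lines at group means. H3K27ac separates the groups at higher regions (47.5% to 70.3% against 77.8% to 85.8%), and all 3 readouts separate them in the opposite direction at lower regions.

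The chromosomes took similar shares of the calls. Higher regions made up 35.9% of those tested on the X chromosome and 44.8% on chromosome 11, the lowest and highest shares among the autosomes and X. By peak number the X chromosome held 0.768%, 1.07%, 0.798% and 1.2001% of the peaks of control livers 1 to 4 and 1.63%, 1.44%, 1.51%, 1.80%, 1.69% and 1.97% of those of tumours 1 to 6. The groups did not overlap (means 0.958% ± 0.210 and 1.67% ± 0.196, SD, n = 4 and 6, exact permutation p = 0.00952, adjusted over chromosomes 0.1). Chromosome 19 went the other way, at 4.35% ± 0.480 in controls and 3.62% ± 0.072 in tumours (exact permutation p = 0.00952, adjusted 0.1). Neither share passed adjustment. Each control, control liver 4 included, had a smaller X share than each tumour. Within each group the longest list had the largest X share, and the part of list length in the difference was not tested.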

How the data were processed

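Per the labels, Myc was precipitated with antibody N262. Per the submitters' processing notes, BWA 0.6.2 and SAMtools were used with the mm9 build. For the peak caller, its threshold and its control library nothing is given in the sources used here. The authors deposited 1 peak list per library, with a score per peak whose scale is not stated; the H3K4me3 and H3K27ac lists hold broad calls with scores, and the RNAPII lists hold positions only. No depth can be given.

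Peaks were merged at 1 bp overlap, and the percent of each region covered in at least 2 libraries was fitted with limma 3.58.1 in R 4.3.3 (mean-dependent prior variance, 6 tumours and 4 control livers, no covariate). The prior took all the weight (infinite prior degrees of freedom), so the standard error is shared by regions of like mean coverage. Switched-off tumours were kept out of the fit. Scores were used within a list, except in the alternative with a stricter score limit, where 23.43 was applied to every list. The upper quartile of the score was 12.11 to 18.34 in control lists and 32.54 to 97.7 in tumour lists. That limit therefore removed a larger share of the peaks of each control list than of any tumour list. Single values per library were compared by two-sided exact permutation in Python 3.11.15 with numpy 2.4.6, pandas 2.3.3 and scipy 1.17.1; plots used matplotlib 3.10.9. The fit was tested on data simulated from the same regions, with group differences removed and a fixed change added in tumours at random regions. That removes the difference in list length between the groups, so the simulation cannot show how the fit deals with it. Named regions were, by a fixed rule, the 5 of at least 500 bp with the largest difference in each of 3 chromatin classes, the 10 lower regions with the largest difference, the 5 with the highest mean coverage among those of at least 500 bp in all 10 libraries, and the 5 longest in all 6 tumours. The members and lists were chosen with earlier results of these data known. Alternatives were other scalings, filters and controls, and each library left out in turn.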

Additional observations from a re-analysis of the deposited data

Results flagged for a closer look

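A library far from the others of its group was found in 7 of 112 groups of values counted. The 112 include groups that could not be flagged, such as controls without a peak at gained regions, where all values were 0. Chance flags about 1 in 20 groups only where values vary and follow a normal distribution. The 7 flags therefore cannot be set against that rate. Control liver 4 stood apart from the other 3 control livers in covered genome, at 4.47 Mb against 0.113 to 0.460 Mb, and in median peak width, at 444 bp against 78 to 132 bp. It also stood apart at chr12:81282596-81283159, a region lower in tumours, where it covered 100% against 72.7% to 73.9%, and at chr8:20019552-20020717, bound in all 10 libraries, where it covered 68.4% against 13.8% to 21.0%. Tumour 6 covered 100% of chr8:106897498-106900998, against 72.3% to 81.1% in the other 5 tumours. Tumour 2 covered 62.1% of chr4:139302781-139303663, against 86.2% to 94.1% in the others. Tumour 4 covered 53.3% of chr3:94142419-94142947, a region lower in tumours, where the other 5 had no peak.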

How the results depend on the processing

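The count of higher regions, 16026 in the fit as reported, was 3767 when at least 50% of a region had to be covered, 8233 with a stricter score limit of 23.43, 8804 with the peaks above each list's median score, 384 with lists of equal length, 7727 with Fisher exact tests on presence, 4838 with wild-type controls, 5 with log10 peak number as a covariate and 1 without control livers 1 to 3 (chosen after seeing the data; the tumours alone then give the spread, and 1 control library is left, so the fit does not separate list length from the loss of 3 controls). It was 12187 to 18827 with 1 library left out, with 12187 to 12249 without control liver 1, 2 or 3 and 13122 without control liver 4. The 62 lower regions became 114 with all 13 Myc libraries in the fit, 101 with regions covered in at least 3 libraries, 215 with peaks set to 500 bp, 12 at 50% coverage, 14 with the stricter score, 110 with lists of equal length, 0 with wild-type controls, 21 with the covariate and 19 to 74 with 1 library left out. Of alternatives chosen after seeing the data, limma without the mean trend gave 147, control liver 4 alone 0, tumours and controls numbered 1 and 2 alone 409, and those numbered 3 and 4 alone 16. These last fits have few libraries. With each region's own spread 11865 were higher.

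Deviations of same-numbered tumour and control libraries correlated at -0.16, 0.08, -0.16 and 0.02, and control liver 2 alone correlated best with its own number. Between tumour 1, the shortest tumour list, and tumour 6, the longest, the correlation went from -0.165 to 0.203 in control liver 1. It went from -0.0572 to 0.0677, from -0.223 to 0.286 and from 0.199 to -0.249 in control livers 2 to 4. Since they varied along with list length, these correlations cannot decide whether same-numbered libraries were paired. With the replicate number as a block, 12075 regions were higher and 28 lower.

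List sizes with wild-type controls differed by 29036 peaks, 25.8 Mb and 344 bp (exact permutation, adjusted p = 0.107, 0.107 and 0.143). In whole lists the share with H3K27ac alone, -0.51 points, became 0.609 without control liver 1, 2.56 without control liver 2 and 0.186 without tumour 1 (range -3.51 to 2.56). In lists of equal length the differences for H3K4me3, H3K27ac alone and neither mark were 34.5, -18.0 and -16.5 points without control liver 4 (exact permutation, adjusted p = 0.0476 each), with ranges over single libraries of 17.6 to 34.5, -18.0 to -9.86 and -16.5 to -7.78. The score rank difference was 29.3 to 39.7 with 1 library left out (exact p = 0.0625 with 5 tumours, the smallest possible). H3K4me3 at regions not called differed by 0.00137 points, by -0.253 in the share of regions with a peak, and by -1.07 to 1.00 with 1 library left out.

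Of the named regions, chr8:19784347-19785389 reversed to -10.1 with peaks of 500 bp, -25.9 with equal lengths and -9.22 with the covariate. For chr8:20019552-20020717 these values were -11.8, -23.0 and -5.37. Values for chr4:35073934-35074615 were -75.4 with equal lengths and -33.1 with the covariate. For chr4:116792446-116794371 and chr8:11000982-11012307 the covariate gave -4.45 and -1.16. At chr17:39979823-39985909 the difference was 15.9 with the stricter score and 6.62 in libraries numbered 3 and 4. At chr19:5839380-5850751 it was -25.0, -39.6 and -76.2 with peaks of 500 bp, equal lengths and the covariate, -11.3 without control livers 1 to 3 and -55.2 in libraries numbered 1 and 2. The causes were not tested, beyond that some alternatives use fewer libraries or regions.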
